A study of Mus musculus with 8 samples.

Results

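The EGF family ligands and ERBB receptors were followed as 10 genes, 6 ligands (Egf, Hbegf, Ereg, Btc, Tgfa and Epgn) and 4 receptors (Egfr, Erbb2, Erbb3 and Erbb4), out of 19505 genes measured. Each was found by its symbol in the platform annotation, and each had 1 probe set. All 10 were measured on every array, and no filter on low values was applied. The amphiregulin gene Areg, a further ligand of the family, was not analysed here.

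Transcript levels were read on arrays from the whole uterus of wildtype C57BL/6J mice, an inbred strain, at day 4.5 of pseudopregnancy, with 1 array per mouse. The 4 exposed mice inhaled electronic cigarette aerosol made from propylene glycol and vegetable glycerin (55 to 45 parts) with 24 mg/mL nicotine, for 3 hours per day at 2 puffs per minute. Exposure ran over 4 weeks of 5 days before mating and continued daily after the plug. The 4 sham mice breathed room air, and the females of both groups had been mated to vasectomized males, so that the uteri held no embryo. The comparison asks whether exposure alters uterine gene expression at the stage when an embryo would implant. Values are log2 expression, means are given ± SD over 4 mice, and differences are exposed minus sham from limma's fit over all probe sets, with their 95% confidence interval.

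The ligands are made as membrane proteins and are released by proteases of the ADAM family. They bind ERBB receptors, which pair with each other and signal through the RAS-ERK and PI3K-AKT pathways. EGFR binds all 6 ligands, ERBB4 binds HB-EGF, betacellulin and epiregulin as well as neuregulins, ERBB3 binds neuregulins and has an impaired kinase, and ERBB2 has no known ligand of its own and acts as a partner. In the mouse uterus the family is known for the dialogue between blastocyst and luminal epithelium, in which Hbegf appears at the site of the embryo before attachment.

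Stromal transcription factors that mark uterine tissue, named after their values were seen, lay at different levels from each other. The exposed and sham values overlapped for each of them. Hoxa10 lay between 10.87 and 11.22 in exposed and between 11.01 and 11.36 in sham uteri. Hoxa11 lay between 8.76 and 9.36 in exposed and between 9.15 and 9.28 in sham uteri. Hand2 lay between 7.68 and 8.07 in exposed and between 7.68 and 7.97 in sham uteri. Exposed mice 4 and 2 stood somewhat apart from the rest, with mean correlations to the other arrays of 0.977 and 0.982, against 0.986 to 0.987 for the other 6. The SD between mice was larger in exposed uteri for 65.8% of all probe sets. Whole tissue was used, so that fewer cells of a type and less RNA per cell cannot be told apart.

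No ligand or receptor transcript passed the test. Of the 10 genes, 7 had higher and 3 had lower means in exposed uteri, where 50.5% of all probe sets had higher means. With limma, 0 of 10 passed an adjusted p of 0.05 over all 22206 probe sets and 0 of 10 had an unadjusted p under 0.05, against 0% and 5.42% (1203) of all probe sets. The groups overlapped for each of the 10 genes, whereas 2.73% of all probe sets had 4 exposed and 4 sham values that did not overlap. A difference past 1.5-fold was found for 0 of 10 genes and for 1.09% of all probe sets. The median size of the difference was 0.079 for the 10 genes and 0.095 for all 19505 genes. The adjusted p ranged from 0.838 to 0.973.

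For 8 of the 10 genes the 95% interval lay within a 1.5-fold change in either direction. It did not for Egfr and Erbb4, the receptors with the largest differences in opposite directions.

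**Figure D1:**
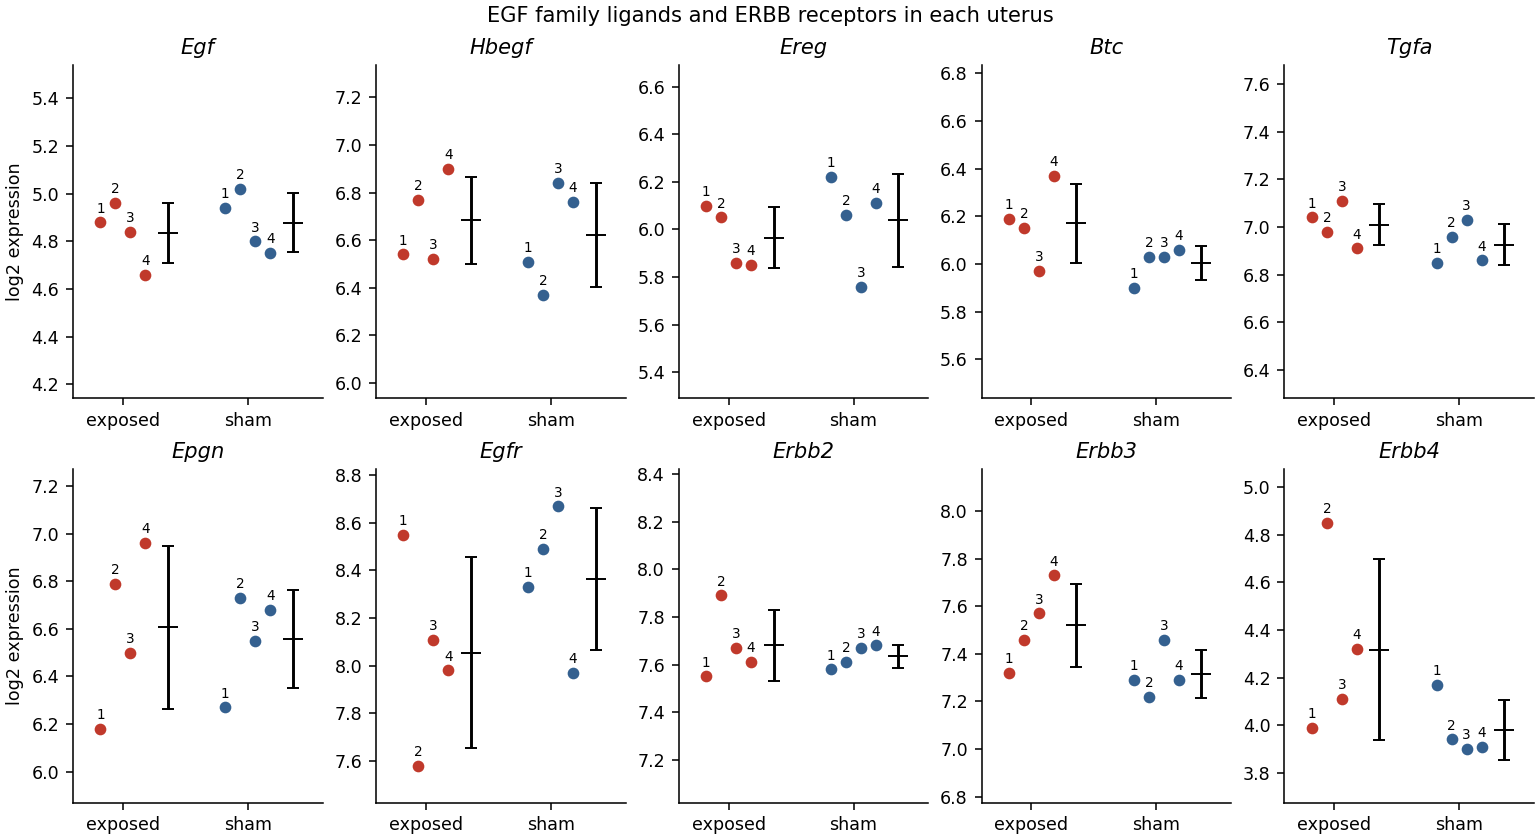
Log2 expression of the 6 ligands and 4 receptors in each mouse (points, numbered by mouse, exposed left and sham right), with the mean and SD of 4 mice (black); every panel spans the same number of log2 units. The groups overlap in each panel, and the widest spreads are those of Egfr, Erbb4 and Epgn.

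Among the ligands, heparin-binding EGF was close between the groups. Hbegf had 6.54, 6.77, 6.52 and 6.90 in exposed mice 1 to 4, against 6.51, 6.37, 6.84 and 6.76 in sham mice 1 to 4. The difference was 0.06 (95% interval -0.23 to 0.36, adjusted p = 0.940 in limma), and the exact two-sided permutation p over the 70 assignments of mice was 0.600. Only exposed mouse 4 lay above all sham mice, and the difference was -0.008 without it.

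Betacellulin had the largest difference of the ligands. Btc had 6.19, 6.15, 5.97 and 6.37 in exposed mice, against 5.90, 6.03, 6.03 and 6.06 in sham mice. Exposed mice 1, 2 and 4 lay above all sham mice and exposed mouse 3 lay among them. The difference of 0.16 (interval -0.06 to 0.39, 1.12-fold) had an adjusted p of 0.838 in limma and an exact permutation p of 0.114. Without exposed mouse 3 the unadjusted p was 0.0424 (adjusted p = 0.682 in limma). In that setting 7.2% of all probe sets had an unadjusted p under 0.05. Without exposed mouse 4 the difference was 0.098.

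Transforming growth factor alpha varied least from mouse to mouse, with a range of 0.26 over all 8. Tgfa had 7.04, 6.98, 7.11 and 6.91 in exposed mice, against 6.85, 6.96, 7.03 and 6.86 in sham mice. Exposed mice 1 and 3 lay narrowly above the highest sham mouse. The difference was 0.08 (interval -0.11 to 0.28, exact permutation p = 0.200).

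Epigen, which binds EGFR with low affinity, had the widest spread of the ligands. Epgn had 6.18, 6.79, 6.50 and 6.96 in exposed mice, against 6.27, 6.73, 6.55 and 6.68 in sham mice. Exposed mice 4 and 2 were highest and exposed mouse 1 lowest of all 8, so that the exposed values enclosed the sham values, with means of 6.61 ± 0.34 and 6.56 ± 0.21. The difference of 0.05 (interval -0.33 to 0.43) became -0.068 without exposed mouse 4, -0.013 without exposed mouse 2 and 0.192 without exposed mouse 1.

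Epiregulin and EGF itself had slightly lower means in exposed uteri. Ereg had 6.10, 6.05, 5.86 and 5.85 in exposed mice, against 6.22, 6.06, 5.76 and 6.11 in sham mice, so that all exposed values lay inside the sham range. Its difference was -0.07 (interval -0.33 to 0.18, exact permutation p = 0.543). Egf, the dimmest ligand probe set, with 16.9% of all probe sets below its mean, had 4.88, 4.96, 4.84 and 4.66 in exposed mice and 4.94, 5.02, 4.80 and 4.75 in sham mice. Its difference was -0.04 (interval -0.27 to 0.18, exact permutation p = 0.657). The signal over background could not be assessed for any probe set.

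Epgn, Ereg and Btc lie on mouse chromosome 5 in the order Epgn, Ereg, Areg, Btc with 0 protein-coding genes between neighbours in the RefSeq annotation of GRCm38.p6, while Egf lies on chromosome 3, Tgfa on chromosome 6 and Hbegf on chromosome 18. These neighbours were alike in some mice and differed in others. Exposed mouse 4 was highest for Epgn and Btc and stood 0.19 below the sham mean for Ereg, and exposed mouse 1 was lowest for Epgn and 0.19 above the sham mean for Btc.

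**Figure D2:**
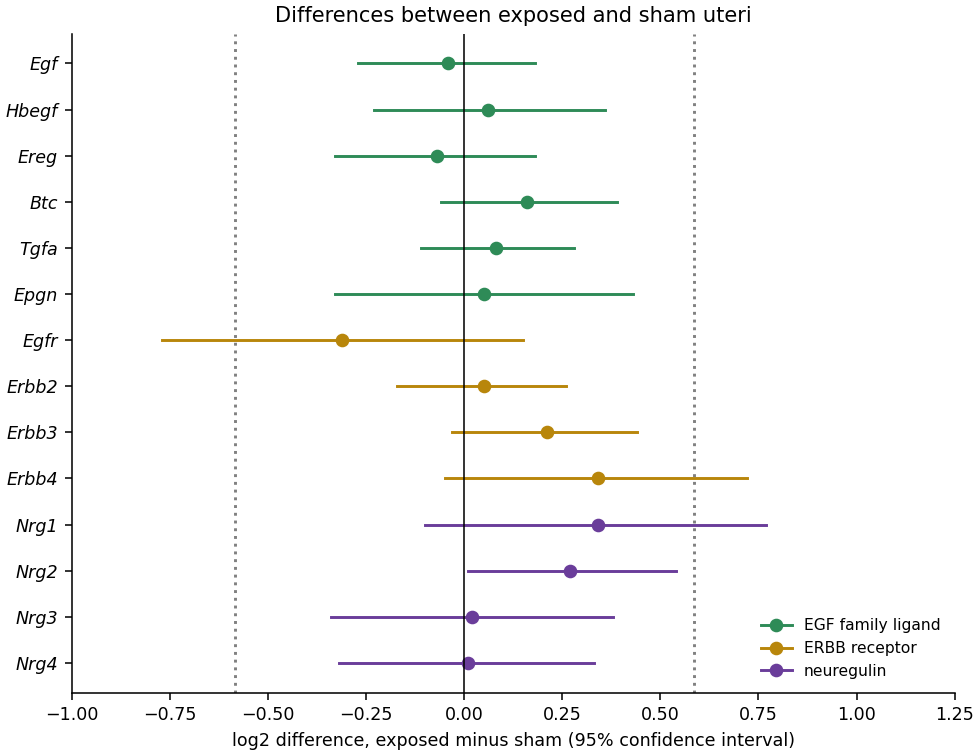
Log2 difference, exposed minus sham, with its 95% confidence interval from limma for the 6 EGF family ligands, the 4 ERBB receptors and the 4 neuregulins; dotted lines mark 1.5-fold changes. Only the interval of Nrg2 leaves out 0, and those of Egfr, Erbb4 and Nrg1 reach past 1.5-fold.

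Of the receptors, Egfr had a lower mean in exposed uteri, 8.05 ± 0.40 against 8.36 ± 0.30 in sham uteri. Its values were 8.55, 7.58, 8.11 and 7.98 in exposed mice and 8.33, 8.49, 8.67 and 7.97 in sham mice. Exposed mouse 2 lay below all others, exposed mouse 1 was second highest of all 8, and sham mouse 4 was level with exposed mouse 4. The difference of -0.31 (interval -0.77 to 0.15, 1.24-fold) did not pass (adjusted p = 0.841 in limma, exact permutation p = 0.314). Without exposed mouse 2 it was -0.151. With exposed mice 2 and 4 both left out, which was tried only once the data had been seen, it was -0.03.

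The mean levels of muscle, stroma and macrophage markers were lowest in the same mouse. All 10 smooth muscle markers had lower means after exposure, where 50.5% of all probe sets had higher means. Their mean level ranged from 10.39 to 10.90 in exposed and from 10.67 to 11.05 in sham mice. The mean of 9 stroma markers, 5 of them with lower means, ranged from 10.31 to 10.68 in exposed and from 10.66 to 10.69 in sham mice. The mean of 8 macrophage and monocyte markers, 7 of them with lower means, ranged from 7.35 to 8.21 in exposed and from 7.90 to 8.15 in sham mice. Of the markers measured, 9 of 10 for muscle, 7 of 8 for macrophages and monocytes and 4 of 9 for stroma were lowest of all mice in exposed mouse 2. The stroma list was mixed there, with Col1a1 at 9.95 and Col3a1 at 11.08, the lowest of all mice, and Dcn at 13.07, the highest. The share of all probe sets lowest in exposed mouse 2 was not taken. Without exposed mice 2 and 4 together, muscle markers had 3 higher and 7 lower means. Macrophage and monocyte markers then had 5 higher and 3 lower means, and stroma markers 4 higher and 5 lower. The dimmest marker of each list was Synm at 6.97, Hand2 at 7.86 and Adgre1 at 7.14 over all mice. Their part in the Egfr values was not tested.

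Erbb4 had a higher mean in exposed uteri, 4.32 ± 0.38 against 3.98 ± 0.13 in sham uteri. Its values were 3.99, 4.85, 4.11 and 4.32 in exposed mice and 4.17, 3.94, 3.90 and 3.91 in sham mice. Exposed mice 2 and 4 lay above all sham mice, while exposed mice 1 and 3 lay inside the sham range. The difference of 0.34 (interval -0.05 to 0.72, 1.26-fold) did not pass (adjusted p = 0.838 in limma, exact permutation p = 0.114) and was 0.157 without exposed mouse 2. Only 8.4% of all probe sets had a lower mean than that of Erbb4.

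Exposed mouse 2 also had the highest adipocyte marker mean. It was 7.11 in that mouse and ranged from 5.69 to 7.11 in exposed and from 5.65 to 6.09 in sham mice. Of its 7 markers, 3 were highest of all mice in exposed mouse 2 and 2 in exposed mouse 1. Higher means after exposure were found for 6 of the 7 markers and for 50.5% of all probe sets. Without exposed mice 1 and 2 together, 3 markers had higher and 4 lower means. The dimmest of them was Lep at 4.71. Exposed mouse 1 came next with an adipocyte marker mean of 6.80 and had an Erbb4 value of 3.99, close to the sham mean. The part of these cells in the Erbb4 values was not tested.

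Erbb3, the receptor with the impaired kinase, had 7.32, 7.46, 7.57 and 7.73 in exposed mice, against 7.29, 7.22, 7.46 and 7.29 in sham mice. Exposed mouse 1 lay among the sham mice and the other 3 lay level with or above the highest of them, sham mouse 3. The means were 7.52 ± 0.18 and 7.31 ± 0.10, and the difference of 0.21 (interval -0.03 to 0.44, 1.15-fold) had the smallest exact permutation p of the 10 genes, 0.0571, where 4 against 4 mice cannot go below 0.0286. Its adjusted p in limma was 0.838, and without exposed mouse 4 the difference was 0.135.

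The gland marker mean was highest in exposed mouse 4 as well, at 9.54. It ranged from 7.19 to 9.54 in exposed and from 7.39 to 7.78 in sham mice. Higher means after exposure were found for 5 of 7 gland markers and for 50.5% of all probe sets. The markers diverged in that mouse: the secreted products Prss28 (12.64), Prss29 (12.04) and Spink1 (12.22) were highest there of all 8 mice, while Foxa2 (7.16), Cxcl15 (6.51) and Aldh1a1 (7.08) were lowest there. Of these, Prss28, Spink1, Cxcl15 and Aldh1a1 were named after their values were seen. The mean over 13 general epithelium markers, 9 of them with lower means after exposure, was lowest in that mouse, at 8.40, with a range of 8.40 to 8.78 in exposed and 8.71 to 9.07 in sham mice. The dimmest markers were Prss28 at 6.18 and Esrp1 at 7.37. Their part in the Erbb3 values was not tested.

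Erbb2, the partner receptor, was nearly level. Its values were 7.55, 7.89, 7.67 and 7.61 in exposed mice and 7.58, 7.61, 7.67 and 7.68 in sham mice. Exposed mouse 2 was above and exposed mouse 1 just below the narrow sham range. The difference was 0.05 (interval -0.17 to 0.26, exact permutation p = 0.771) and -0.026 without exposed mouse 2.

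**Figure D3:**
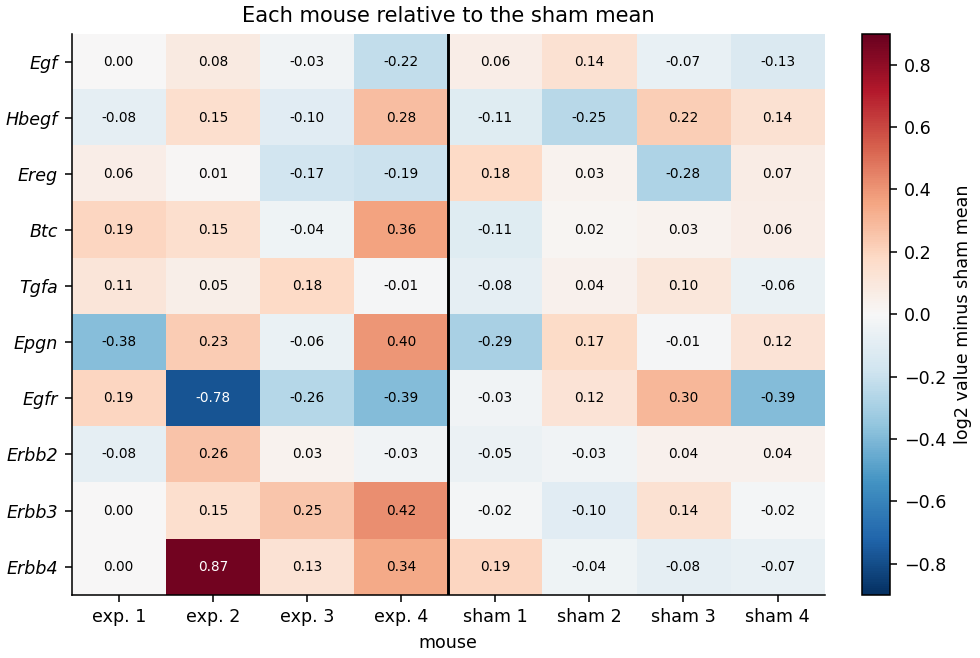
Log2 value of each ligand and receptor (rows) in each mouse (columns, exposed left and sham right) minus the mean of the 4 sham mice, with the number printed in each cell. The largest departures are those of exposed mouse 2, -0.78 for Egfr and 0.87 for Erbb4.

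Values outside the sham range were counted for each exposed mouse. Of the 10 genes, 4, 6, 2 and 6 lay outside it for exposed mice 1, 2, 3 and 4. How many of all probe sets did so was not counted for any mouse. Exposed mice 2 and 4 also had the lowest mean correlations to the other arrays, 0.982 and 0.977. Whether the uneven counts are particular to these 10 genes was not tested. Exposed mouse 4 had the highest value of all mice for Hbegf, Btc, Epgn and Erbb3, and the lowest for Egf. Exposed mouse 2 had the highest value for Erbb2 and Erbb4 and the lowest for Egfr. The SD was larger in exposed uteri for 7 of the 10 genes, a share near that over all probe sets given above.

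No receptor passed adjustment with any 1 mouse left out. Among these runs the unadjusted p-values of Egfr, Erbb3 and Erbb4 were smallest without exposed mouse 1. Without it, Egfr (-0.48), Erbb3 (0.27) and Erbb4 (0.45) had unadjusted p of 0.0275, 0.0275 and 0.0258 in limma, but in that setting 11.5% of all probe sets had an unadjusted p under 0.05. Their adjusted p over all probe sets in limma was then 0.383, 0.382 and 0.377.

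**Figure D4:**
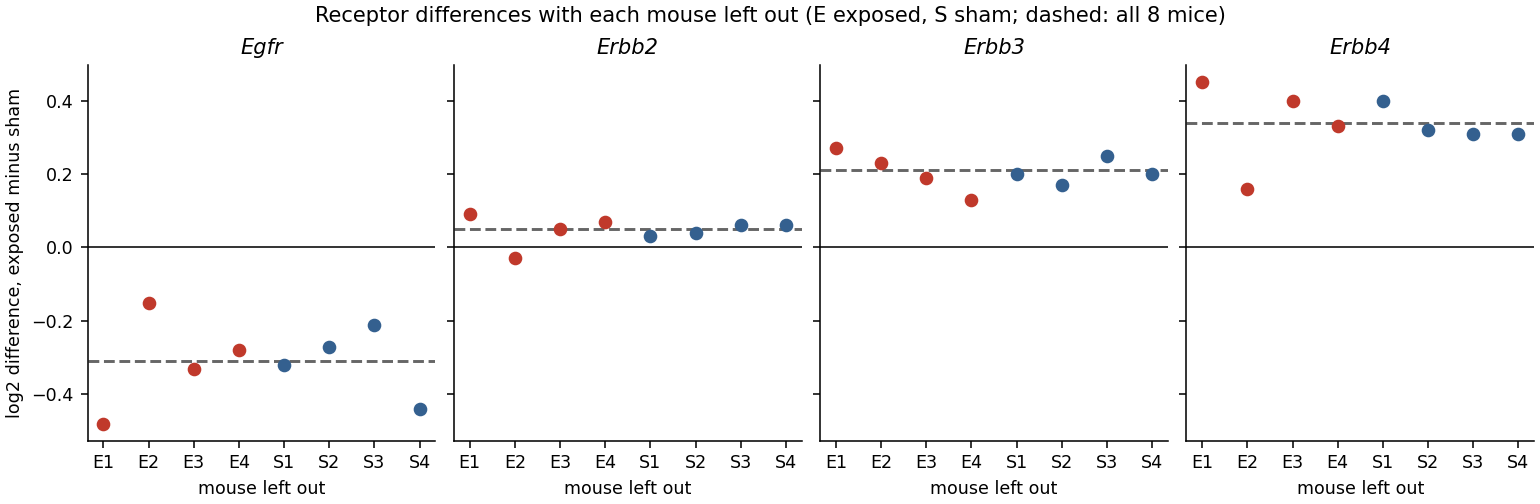
Log2 difference, exposed minus sham, of each ERBB receptor with 1 mouse left out at a time (E exposed, S sham); the dashed line is the value over all 8 mice. Egfr and Erbb4 move most with exposed mice 1 and 2, and Erbb2 changes sign without exposed mouse 2.

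For the 3 ligands and receptors with the widest range over the 8 mice, the genes of most similar profile were sought among the other 19504 by the root mean square difference of log2 values, each centred on its own mean over the 8 mice. For Egfr, with a range of 1.08, these were Mcu (0.099), a mitochondrial calcium channel, Olfml3 (0.099), a secreted matrix protein, and Fscn1 (0.114), an actin-bundling protein. For Erbb4, with a range of 0.95, they were the olfactory receptor gene Olfr235 (0.080), the Notch ligand gene Jag1 (0.081) and Cldn5 (0.085), a claudin of endothelial tight junctions. For Epgn, with a range of 0.78, they were Moxd1 (0.071) and the unnamed genes 9830107B12Rik (0.081) and 6820408C15Rik (0.082). Jag1 had 8.67, 9.34, 8.81 and 9.02 in exposed mice and 8.81, 8.54, 8.62 and 8.43 in sham mice. It was picked for its likeness to Erbb4, so its highest value in exposed mouse 2 follows from that choice.

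The neuregulins, which bind ERBB3, ERBB4 or both, had 4 of 4 higher means in exposed uteri (50.5% of all probe sets). An unadjusted p under 0.05 was reached by 1 of 4 (5.42% of all probe sets). Nrg2 had 7.33, 7.48, 7.03 and 7.16 in exposed mice, against 7.03, 6.78, 7.12 and 6.98 in sham mice, with exposed mice 1, 2 and 4 above all sham mice. Its difference was 0.27 (interval 0.01 to 0.54) with an unadjusted p of 0.0446 and an adjusted p of 0.838 in limma. Nrg1 had 6.66, 7.65, 6.98 and 7.09 in exposed mice, against 6.60, 6.55, 6.90 and 6.98 in sham mice. Exposed mouse 2 was highest for both, and the Nrg1 difference of 0.34 was 0.15 without it. The differences of Nrg3 and Nrg4 were 0.02 and 0.01, and only 6.8% of all probe sets had a lower mean than that of Nrg3. The count of higher means was 2 of 4 without exposed mouse 1, without sham mouse 4 or with array weights. The median of the 4 was 0.15, against -0.0005 over all genes, and without exposed mice 1 and 2 together it was 0.02.

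Of 13 measured genes for shedding and trafficking of the ligands, 6 had higher and 7 lower means, with a median difference of -0.01. An unadjusted p under 0.05 was reached by 1 of 13 (5.42% of all probe sets), and the groups did not overlap for 2 of 13 (2.73% of all probe sets). The gene of smallest p was Adam19, a protease that sheds neuregulins. Adam19 had 7.72, 7.48, 7.67 and 7.60 in exposed mice, against 7.96, 8.02, 7.78 and 7.92 in sham mice. All exposed values lay below all sham values, and the difference of -0.30 (interval -0.51 to -0.09) had an unadjusted p of 0.00867 and an adjusted p of 0.838 in limma. With each mouse left out in turn its unadjusted p ran from 0.006 to 0.0284, and without exposed mice 2 and 4 together it was 0.0617.

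Cd9, a tetraspanin that associates with membrane-bound HB-EGF, had 10.87, 10.85, 10.86 and 10.84 in exposed mice, against 10.80, 10.73, 10.74 and 10.62 in sham mice, again without overlap. Its difference of 0.13 (interval -0.05 to 0.31) had an adjusted p of 0.838 in limma. Tmed2, a cargo receptor of the secretory pathway, had a difference of -0.14 with overlapping groups. Adam17 and Adam10, the main sheddases of the family, were chosen after their values were seen, and their means were 8.89 ± 0.13 in exposed against 8.92 ± 0.07 in sham uteri for Adam17 and 9.59 ± 0.11 against 9.53 ± 0.09 for Adam10.

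Among 21 inhibitors of the receptors and of ERK signalling, 13 had higher and 8 lower means. Of these, 0 had an unadjusted p under 0.05 (5.42% of all probe sets). The smallest p-values belonged to Cblb, a ubiquitin ligase (difference 0.22 ± 0.13, SE), and to the Sprouty genes Spry2 (0.26 ± 0.16) and Spry4 (-0.13 ± 0.10), whose products restrain RAS-ERK signalling. Errfi1, which encodes the receptor inhibitor MIG6 and was named after its values were seen, varied widely in both groups. It had 10.63, 9.50, 10.66 and 10.92 in exposed mice, against 11.68, 10.85, 10.34 and 10.51 in sham mice. Exposed mouse 2 was lowest and sham mouse 1 highest of all 8, and the difference was -0.42.

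Of 24 measured signal transducers, 14 had higher and 10 lower means and 1 had an unadjusted p under 0.05, a share near the 5.42% of all probe sets. This was Gab1, a docking protein that couples the receptors to PI3K and SHP2, with 8.02, 8.29, 8.08 and 8.28 in exposed mice, against 7.99, 7.90, 7.80 and 7.54 in sham mice. The groups did not overlap, although exposed mouse 1 lay just above sham mouse 1. The difference of 0.36 (interval 0.10 to 0.62, 1.28-fold) had an unadjusted p of 0.0118 and an adjusted p of 0.838 in limma. With each mouse left out in turn its unadjusted p ran from 0.00804 to 0.0353, and without exposed mice 2 and 4 together it was 0.107. Akt1, a kinase downstream of PI3K, and Grb2, an adaptor that links receptors to RAS, had lower means, with differences of -0.27 ± 0.13 and -0.18 ± 0.10 (SE). Without exposed mice 1 and 2 together, 6 of the 24 had an unadjusted p under 0.05, where 8.78% of all probe sets did.

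Transcripts that ERK signalling induces had 5 higher and 12 lower means among 17 measured, a split that turned round without 1 sham mouse. Over all 8 mice, 50.5% of all probe sets had higher means. Sham mouse 1 had the highest value of all 8 mice for 11 of the 17, and without it 12 had higher and 5 lower means. The share of all probe sets highest in sham mouse 1 was not taken. Fos, an immediate early gene named after its values were seen, had 6.90, 7.11, 7.55 and 7.10 in exposed mice, against 8.72, 7.18, 6.66 and 6.57 in sham mice. None of the 17 had an unadjusted p under 0.05 in limma, against 5.42% of all probe sets. The smallest p-values were those of Plaur, the urokinase receptor gene (difference -0.28 ± 0.14, SE), of Etv5, a transcription factor induced by ERK (0.46 ± 0.29), and of Myc (-0.17 ± 0.14).

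**Figure D5:**
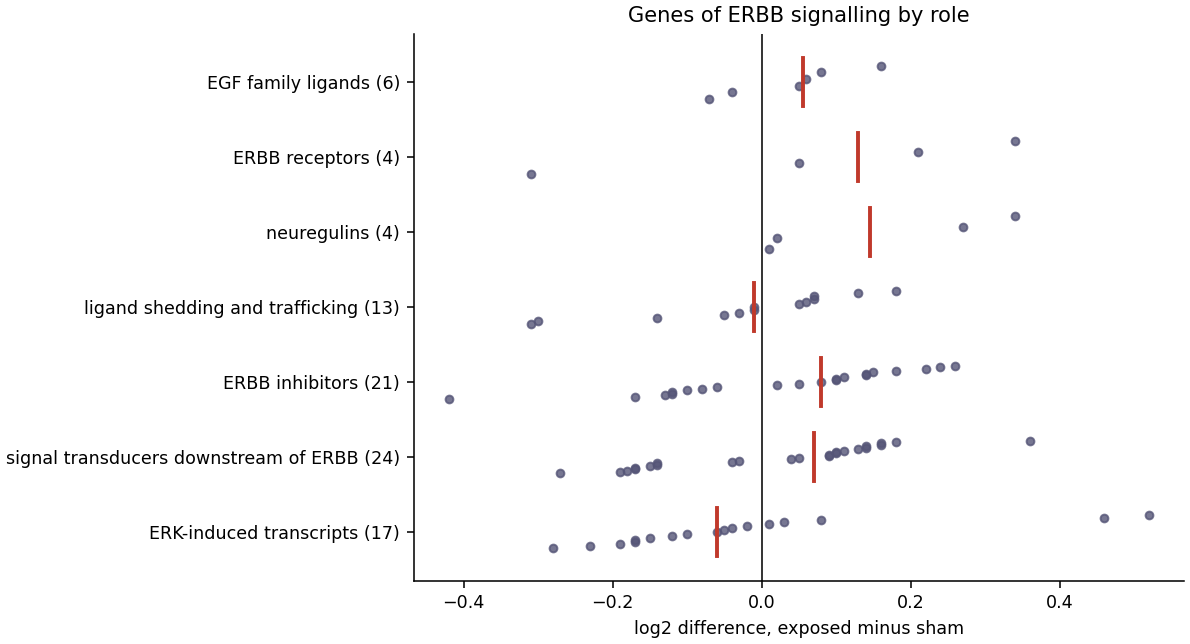
Log2 difference, exposed minus sham, of each measured gene (points) of the ligands, receptors and related gene lists, with the number of genes in brackets and the median of each list in red. Medians lie between -0.06 and 0.15, and single genes between -0.42 and 0.52.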

How the data were processed

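A single table of log2 expression, 22206 probe sets by 8 arrays, was deposited by the authors. The log2 scale is read from the values (2.75 to 13.6), and per the submitters' processing notes Partek was used. Background correction, probe summary and scaling: not given in the sources used here. Sorted values of the arrays differed by at most 0.0198, so no further normalization was applied. A change shared by all genes would be lost. No batch is labelled, and the number of arrays limits precision.

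Of the probe sets, 19572 carry 1 gene symbol, 0 several and 2634 none in the platform annotation. The probe set of highest mean stood for a gene. Exposed and sham mice, grouped by their titles, were compared with limma 3.58.1 in R 4.3.3 (lmFit, eBayes, no covariate), with p-values adjusted over all probe sets by Benjamini-Hochberg, after a test on simulated data, and for the 10 genes by exact permutation of mice. Mice are separate animals per the labels. Besides the 10 genes, the 3 genes of smallest p were named from each related list, together with the most similar profiles; exceptions are marked. Genes and lists were chosen with earlier results of these data known. Alternatives changed normalization, filter, moderation, weights, block, probe sets and mice; leaving out pairs of mice was added after seeing the data.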

Additional observations from a re-analysis of the deposited data

Results flagged for a closer look

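Of 68 groups of 4 mice examined for the ligands, receptors, named related genes and marker means, 1 held an outlying mouse by Dixon's criterion. About 1 in 20 groups would hold one by chance. Erbb4 stood at 4.17 in sham mouse 1, against 3.90 to 3.94 in the other sham mice. Without sham mouse 1 the Erbb4 difference was 0.397.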

How the results depend on the processing

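No ligand or receptor passed an adjusted p of 0.05 under any alternative run. Averaging probe sets could not alter these 10 genes, as each has 1 probe set. Further normalization could hardly alter them, as sorted values of the arrays already differed by at most 0.0198. Signs changed in 3 of the 10 genes without exposed mice 2 and 4 together (Hbegf -0.088, Epgn -0.218, Erbb2 -0.024). With 1 mouse left out, differences ranged from -0.084 to 0.018 for Egf, -0.019 to 0.137 for Hbegf, -0.068 to 0.192 for Epgn, -0.026 to 0.087 for Erbb2, -0.167 to -0.014 for Ereg, 0.098 to 0.231 for Btc, 0.051 to 0.118 for Tgfa, -0.475 to -0.151 for Egfr, 0.135 to 0.273 for Erbb3 and 0.157 to 0.445 for Erbb4. Over the array, 0 to 1 probe sets passed the adjusted p, and 726 to 2545 had an unadjusted p under 0.05. Without exposed mice 1 and 2 together, 7 probe sets passed and 1950 had an unadjusted p under 0.05.

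Counts of higher means with 1 mouse left out were 3 to 4 for ligands, 2 to 3 for receptors, 2 to 4 for neuregulins, 5 to 8 for shedding, 10 to 13 for inhibitors, 13 to 15 for transducers and 2 to 12 for ERK-induced transcripts. Counts at an unadjusted p under 0.05 were 0 to 1 for ligands, 0 to 3 for receptors, 0 to 1 for neuregulins, 1 for shedding, 0 to 2 for inhibitors, 1 to 3 for transducers and 0 to 3 for ERK-induced transcripts. Over all probe sets the share at that threshold ran from 3.27% to 11.5% in these runs. The highest counts for receptors, inhibitors, transducers and ERK-induced transcripts came without exposed mouse 1, where the share was 11.5%. Higher means numbered 2 for neuregulins and 3 for ERK-induced transcripts with array weights, 2 and 9 without exposed mice 1 and 2, and 2 for ligands without exposed mice 2 and 4. The neuregulin count at an unadjusted p under 0.05 was 0 with array weights, either trend, no moderation, the replicate block, and either pair of mice left out. The transducer count was 2 with either trend (5.55% and 5.53% of all probe sets). It was 6 without exposed mice 1 and 2 (8.78%) and 0 without mice 2 and 4 (3.98%). The count was 3 of 13 for shedding without moderation, where 4.83% of all probe sets had an unadjusted p under 0.05. Without exposed mice 1 and 2 it was 1 for receptors and inhibitors and 3 for ERK-induced transcripts (8.78% of all probe sets). For the last it was 1 with array weights (5.4%) and with the block (5.74%).

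The replicate number was fitted as a block, which left 0 probe sets past the adjusted p and 1274 at an unadjusted p under 0.05. Same-numbered mice correlated at 0.08, -0.24, 0.09 and 0.08 in their deviations from the group means, and 1 of 8 mice correlated best with its own number. These values give no sign of pairing by number, but so few mice cannot show that there was none. The filter at the 25th percentile removed Egf and Erbb4. The cause of these shifts was not tested.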
